A study of Pinctada fucata with 15 samples.

Results

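Transcripts that were high in D-shaped stage larvae and again in juveniles of the pearl oyster *Pinctada fucata*, and low in the stages before and between, are described here as 100 microarray probes out of the 58583 unigene probes of the array. Expression was measured on 15 one-colour arrays, with 3 pools for each of 5 stages. They were fertilized eggs at 0 h, trochophores at 17 h, D-shaped larvae at 48 h, umbonal larvae after 14 days and juveniles after 35 days, all from untreated culture and fed on algae. Each array held the RNA of many animals, and a stage was taken once most larvae of the culture had reached it, so that a pool can hold animals of neighbouring stages. The study calls the pools of a stage biological replicates, but the sources used here do not say whether they came from separate matings or cultures, so p-values measure only the spread between these pools, which may be technical. The members were chosen by measured values. In the deposited log2 table the 3 arrays of each stage were averaged, and the score was the lower of the D-shaped and juvenile means minus the highest of the egg, trochophore and umbonal means. A probe was eligible when the scanner software marked it as well above background (called detected from here on) in every spot of the 6 D-shaped and juvenile arrays, which 40210 unigene probes were. Leaving aside 4 probes excluded by name, 3032 of these had a score above 0, 342 above 1 and 80 above 2, and the 100 highest scores, between 1.78 and 5.87 (median 2.33), make up the set. The excluded probes, CUST_47036, CUST_56279, CUST_54967 and CUST_12898, are described apart.

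The D-shaped larva carries the first larval shell, a pair of straight-hinged valves, and swims with a ciliated velum. The umbonal larva, still swimming, adds the later larval shell, whose umbo rises over the hinge, and the juvenile has settled, lost the velum and begun the adult-type shell with its prismatic and nacreous layers. A bulk measure of whole animals cannot tell apart a change in RNA per cell and a change in how many cells of a type are present.

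The arrays came from 2 slides. On slide 1 were the eggs, the trochophores and D-shaped pools 1 and 2, and on slide 2 were D-shaped pool 3, the umbonal larvae and the juveniles. Values given below as signal are the processed scanner signal after quantile normalization across the 15 arrays, on a linear scale unless log2 is stated, and a level of one probe is not compared with that of another. The share of probes detected lay between 53.2% and 65.4% on the egg arrays and between 89.2% and 91.1% on the juvenile arrays. Egg arrays 1 and 3 stood apart in ways that touch the set. On egg array 1 the deposited signal was the same value, 15.4, for 18147 probes, 71 of the members among them, and after normalization these all read 20.6, which has no order and is not a measured level. On egg array 3 some members read far above the other egg arrays, as described with the annotated probes.

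In the deposited values, all 6 D-shaped and juvenile arrays lay above all 9 other arrays in 97 of the 100 members. Of all 40210 eligible probes 2.55% did so, and since the rule used this contrast nothing is read from the difference. After quantile normalization 93 members showed it. Those that did not were CUST_13503, CUST_17883, CUST_26933, CUST_42928, CUST_44446, CUST_51365 and CUST_51905. The low stages differed in how many members were detected. In eggs 68 members were detected on no array, in trochophores 60 and in umbonal larvae 10. All 3 umbonal arrays detected 64 members, whereas 20 were detected on all 3 trochophore arrays and 9 on all 3 egg arrays. Of all probes, 53.2% to 65.4% were detected on the egg arrays and 61.6% to 70.2% on the trochophore arrays. On the umbonal arrays the share was 80.8% to 91.3%. The lowest detected signal was 66.5 to 189 on the egg arrays, 51.9 to 94.4 on the trochophore arrays and 12.5 to 24.5 on the umbonal arrays. These counts are therefore not a comparison of levels. The median of the stage means over the members was a log2 signal of 4.71 in eggs, 5.16 in trochophores, 8.84 at the D-shaped stage, 5.27 at the umbonal stage and 9.58 in juveniles. In the deposited values, the umbonal stage was the highest of the low stages in 61 members, the trochophore stage in 26 and the eggs in 13. This order depends on the scaling. CUST_11940, highest in umbonal larvae by the deposited values, had a quantile-normalized mean log2 signal of 7.38 in eggs and 6.79 in umbonal larvae.

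**Figure D1:**
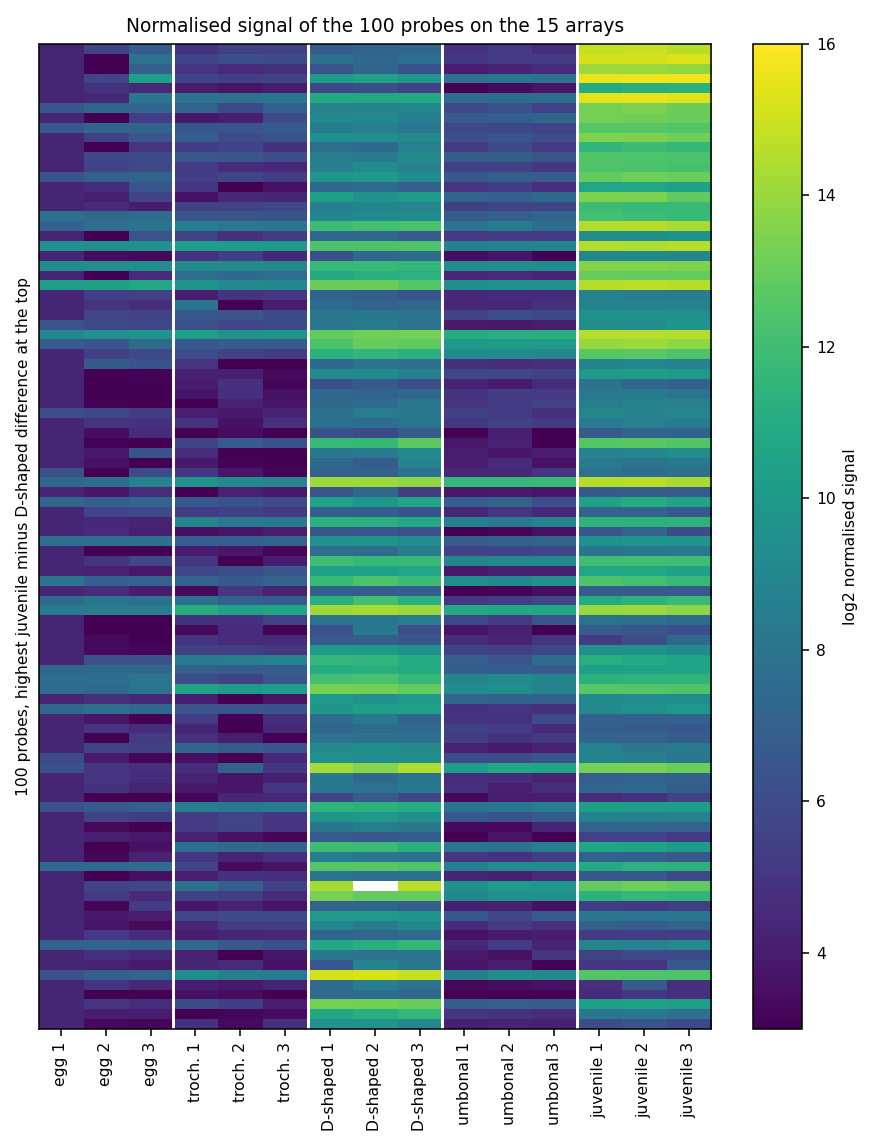
Heat map of the log2 normalised signal of the 100 members (rows, ordered by juvenile minus D-shaped difference) on the 15 arrays (columns, 3 per stage in developmental order). The D-shaped and juvenile columns are brighter than the others in most rows, though dim members stay near the dark end of the scale. Juveniles are brighter at the top and D-shaped larvae at the bottom, and the even colour of egg array 1 is its common value of 20.6. The white cell is CUST_46769 on D-shaped array 2, an outlier spot that was left out.

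The size of the rise and of the later fall was what selected the members, so it is given without a test. For the 40 members detected on at least 1 trochophore array, the D-shaped mean was 3.29-fold to 355-fold the trochophore mean (median 11-fold). Only 20 members were detected on all 3 trochophore arrays, so for the rest of the 40 the fold rests partly on readings below detection. The highest fold was that of CUST_35639, which read 26.2, 132 and 34.6 in trochophores and was detected on 1 of these arrays. Among the members detected on no trochophore array, a lower bound against the detection limit could be given for 59. It lay between 1.02-fold and 134-fold (median 3.49-fold), so for many dim members the size of that rise is not measured. The D-shaped mean was 3.90-fold to 328-fold the umbonal mean in the 90 members detected on an umbonal array (median 8.48-fold). Of these, 64 were detected on all 3 umbonal arrays. The juvenile mean was 2.57-fold to 1072-fold the umbonal mean in the same 90 (median 11.1-fold). Against the eggs, no fold or bound could be given for the D-shaped mean of 9 members and the juvenile mean of 15. The same held for the juvenile mean of 8 members against the trochophores. Their high level lay below the detection limit of the earlier stage, so a low level in that stage is not measured for them.

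The highest score belonged to CUST_54195 (Unigene54235), whose closest protein is AGAP008350-PA of the mosquito *Anopheles gambiae* and which is listed under the pathway term methane metabolism. Its signal was 20.6, 8.71 and 8.24 in eggs, 50.9, 111 and 71.7 in trochophores, 3527, 3189 and 6869 in D-shaped larvae, 14.2, 19.5 and 7.93 in umbonal larvae, and 6179, 6594 and 5758 in juveniles. The D-shaped mean was 328-fold and the juvenile mean 474-fold the umbonal mean between them, and of the 9 low arrays 1 trochophore and 2 umbonal arrays detected it. CUST_6403 (Unigene6407), for which no homolog was listed, had the next score and nearly the same levels in all pools of the high stages. It read 1389, 1408 and 1619 in D-shaped larvae, 14.8, 17.9 and 18.0 in umbonal larvae and 1651, 1737 and 1449 in juveniles.

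CUST_57637 (Unigene57677) came next. Its closest protein is a trichohyalin of the protist *Trichomonas vaginalis*, and trichohyalin itself is a structural protein of the mammalian hair follicle. Unlike the first probes it had a measured level in the low stages, 183, 267 and 226 in eggs and 213, 122 and 111 in trochophores, and it was detected on all 3 umbonal arrays at 33.7, 41.3 and 54.0. Juveniles had 1958, 2688 and 3438 and D-shaped larvae 2394, 4404 and 2444, so that the ranges of these stages overlapped.

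The other 7 of the 10 highest scores had no homolog or term listed. CUST_14404 read 20.6, 7.65 and 23.3 in eggs, 202, 172 and 205 in trochophores, 1811, 2306 and 2502 in D-shaped larvae, 22.2, 24.1 and 20.2 in umbonal larvae and 8136, 7462 and 7669 in juveniles. No egg array detected it, all 3 trochophore arrays did, and the umbonal pools, detected on 2 arrays, lay well below the trochophore pools before them. CUST_50596 had 3898, 4390.3 and 4865 in D-shaped larvae and 248, 370.1 and 209 in umbonal larvae. Juveniles stood above both, at 23332, 24605 and 20416. In CUST_11940 the low stages were close together, at 156, 174 and 171 in eggs, 126, 115 and 109 in trochophores and 111, 117 and 105 in umbonal larvae. Its juvenile pools read 1302, 1462 and 1535, all below the 2014, 2269.6 and 2026 of its D-shaped pools. Levels of CUST_30368, CUST_51444, CUST_2473 and CUST_22826 in D-shaped larvae overlapped with those in juveniles. In CUST_2473 and CUST_22826 the D-shaped pool on slide 2 was the highest of its stage, with 571 against 289 and 314 and with 436 against 174 and 110.0.

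**Figure D2:**
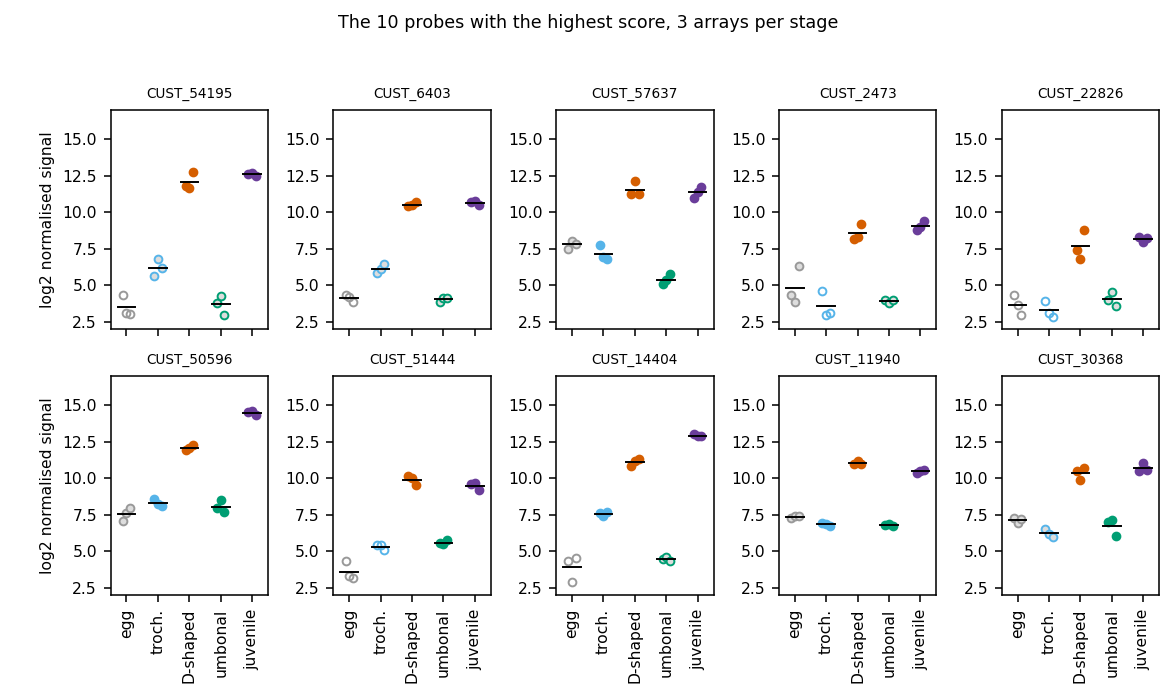
Log2 normalised signal of the 10 members with the highest score, 1 panel per probe, with the 3 arrays of each stage as points in developmental order and the stage mean as a black bar. Filled points mark stages detected on all 3 arrays, grey-filled points those detected on 1 or 2, and open points those detected on none. In every panel the D-shaped and juvenile points lie above the other stages, and CUST_50596 and CUST_14404 have their highest points in juveniles.

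The rule takes the lower of the D-shaped and juvenile means, and so it does not fix the difference between them. That difference was tested with limma over all probes, as juvenile minus D-shaped, and calls required an adjusted p (Benjamini-Hochberg) under 0.05 together with a 2-fold change or more. Of the 100 members, 32 were higher in juveniles and 22 lower, and 46 were not called. Among all 51927 probes tested, 20.8% were higher in juveniles and 24.3% lower. That background also holds probes detected on all arrays of only a single stage, whereas members were detected on all 6 arrays. Among the 40428 probes detected on all 6 D-shaped and juvenile arrays, 5716 were higher and 11667 lower. Their median log2 difference was -0.36. The shares of all probes given below are not limited in this way. The median log2 difference was 0.20 over the members and -0.16 over all probes tested, and in single members it ran from -3.37 to 7.67. In all 32 members called higher, the 3 juvenile arrays lay above the 3 D-shaped arrays, and in 21 of the 22 called lower they lay below, as in 98.7% and 99.3% of all probes called higher and lower. Among the 22, CUST_46769 rests on 2 D-shaped arrays because an outlier spot was left out. After scaling by spike-in probes, which moved the median of all tested probes to 0.23, 40 members were higher and 15 lower, beside 28.4% and 13.3% of all probes. The difference was also taken among the arrays of slide 2 alone, with 3 juvenile pools against D-shaped pool 3 and the spread of that single pool taken from the other stages. There 36 members were higher and 22 lower, beside 19.1% and 24.9% of the 54033 probes tested, and of the members called in the fit to both slides 32 and 19 were called again. With the slide as a block 33 members were higher and 17 lower, beside 18.1% and 21.9% of all probes.

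**Figure D3:**
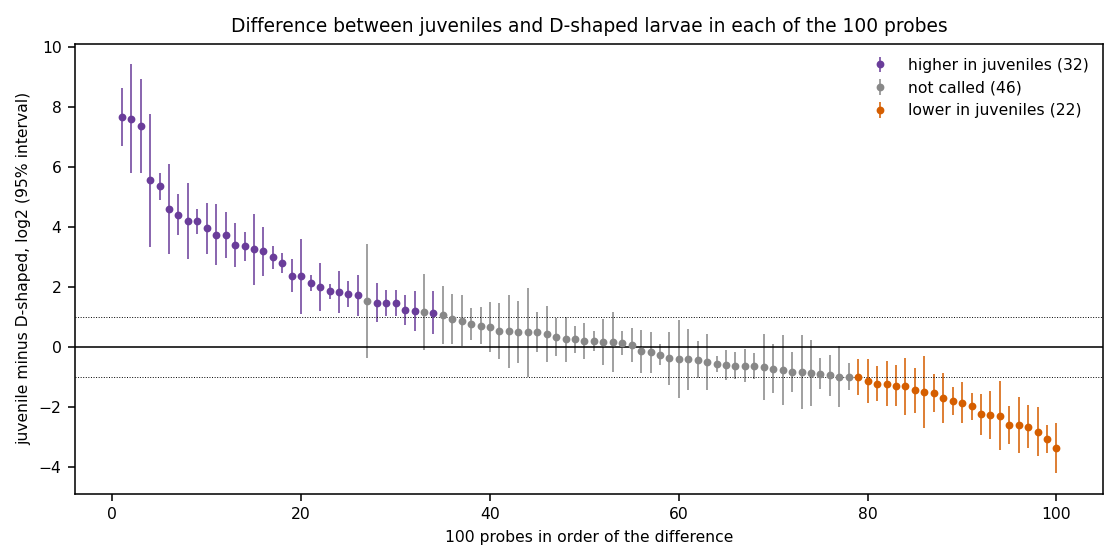
Juvenile minus D-shaped difference in log2 normalised signal for each of the 100 members in order of size, with the 95% interval of the limma fit and dotted lines at a 2-fold change either way. The 32 members called higher in juveniles reach 7.67 and the 22 called lower reach -3.37, and the 46 members not called are in grey.

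The largest difference was that of CUST_42928, without a homolog listed. Juveniles had 28272, 30252 and 24541 and D-shaped larvae 109.8, 140.1 and 163, a log2 difference of 7.67 (standard error 0.44, adjusted p = 9.1e-09). In such probes the D-shaped level was a small shoulder beside the juvenile one. CUST_42928 entered the set because its egg, trochophore and umbonal means were lower still, with the umbonal pools at 28.5, 35.9 and 26.5. On egg array 3 it read 110.8, just above its lowest D-shaped pool. CUST_26933, CUST_51905 and CUST_44446, described with the annotated members, had log2 differences of 7.60, 7.36 and 5.56. CUST_10452 read 2011, 2359.5 and 2581 in juveniles and 57.4, 68.9 and 45.1 in D-shaped larvae (log2 difference 5.36, standard error 0.21, adjusted p = 3.2e-10). It was detected on none of the 9 low arrays, and because its D-shaped level is below the detection limit of the trochophore arrays no fold between these stages can be given.

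The largest falls were in members without annotation. CUST_25937 had 63.6, 79.8 and 58.5 in juveniles and 751, 854 and 514 in D-shaped larvae, so that its log2 signal fell by 3.37 (standard error 0.39, adjusted p = 5.7e-06). CUST_16381 had 303, 305 and 236 in juveniles against 1687, 2368 and 3204 in D-shaped larvae, and fell by 3.07 (standard error 0.22, adjusted p = 6.9e-08). CUST_36268 had 1318, 1372 and 1199.5 in juveniles against 9896, 9667 and 8055 in D-shaped larvae, and fell by 2.82 (standard error 0.38, adjusted p = 2.3e-05). These are probes of a D-shaped peak with a lower juvenile return. In umbonal larvae CUST_36268 was detected on all 3 arrays at 115, 123 and 107, and the juvenile pools were 11.3-fold above them. CUST_23866 and CUST_51365 fell by 2.65 and 2.61, and their juvenile returns were dim. CUST_23866 read 24.2, 33.2 and 27.6 in juveniles, at least 1.63-fold the umbonal level. In CUST_51365 the juvenile pools read 27.7, 99.6 and 27.3, so that 1 pool carries most of its return. Its egg arrays read 20.6, 32.6 and 22.4 without being detected, so its juvenile level was not measured as above the eggs.

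Of the 46 members not called, 11 had an adjusted p under 0.05 with a change below 2-fold, and 35 had a larger p. For most of the 46 the data do not show equal levels, since the 95% interval of the difference lay within 2-fold either way in only 11. CUST_6403 was among these 11, with an interval from -0.28 to 0.54 on the log2 scale. CUST_58403 had the interval from -0.12 to 0.52, with 791, 874 and 871 in juveniles and 754, 850.1 and 622 in D-shaped larvae. CUST_57637 had the interval from -0.86 to 0.52 and CUST_11940 that from -0.83 to -0.28. For CUST_54195 the interval was wider, from -0.40 to 1.47 (adjusted p = 0.29), and its slide 2 D-shaped pool lay within 2-fold of every juvenile pool.

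A homologous protein was listed for 12 members and a pathway term for 6, so that 15 members had one or the other and 85 had neither. The study's sheets name homologs mainly for transcripts it chose for a large rise between the umbonal and the juvenile stage in these same samples. They hold 1112 probes, 34 of the members among them, which is 34 of the 100 members and 3.06% of the sheets. Of those 34, 24 were higher in juveniles than in D-shaped larvae, none was lower and 10 were not called. Of all 1112 probes on the sheets 98.5% were higher and 0.180% lower, beside which 24 of 34 is the lower share. Of the 66 members in neither sheet 8 were higher and 22 lower, beside 20.8% and 24.3% of all probes tested. That background is not limited to probes detected on all 6 D-shaped and juvenile arrays. The sheets are not independent evidence of direction. Of the 15 annotated members 11 were higher, 1 was lower and 3 were not called. As homologs come mainly from sheets chosen for a rise to the juvenile stage, neither split is a result about annotated or other members.

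Among the annotated members were a pair of probes for BarH homeobox proteins, transcription factors that act in sensory organ and neuron formation in flies and vertebrates. CUST_7979, closest to BarH1 of an aphid, read 94.4, 149.6 and 146 in eggs, 87.7, 87.2 and 104.2 in trochophores, 367, 383 and 271 in D-shaped larvae, 58.1, 57.1 and 50.8 in umbonal larvae, and 6174, 6411 and 5873 in juveniles. CUST_42093, closest to human BarH-like homeobox 1, read 20.6, 56.6 and 61.7 in eggs, 91.9, 89.7 and 70.5 in trochophores, 354, 335 and 575 in D-shaped larvae, 115, 114 and 84.5 in umbonal larvae, and 5685, 5435 and 5141 in juveniles. Both had a first rise at the D-shaped stage, a return to a low level at the umbonal stage and their highest signal in juveniles, where they were higher than in D-shaped larvae by 4.19 and 3.73 on the log2 scale (standard errors 0.19 and 0.35, adjusted p = 1.2e-09 and 9.1e-07). The unigenes differ, and whether the probes read transcripts of 1 gene was not tested. In the list of 7 transcription factor probes drawn from the study's sheets, all 7 were higher in juveniles than in D-shaped larvae, as were 98.5% of all probes on those sheets. Of the 4 detected on all 6 D-shaped and juvenile arrays, 3 had a score above 0, and CUST_7979 and CUST_42093 were members. CUST_44397, closest to mouse Barhl2, was no member, with a mean log2 signal of 6.26 at the D-shaped stage and 5.96 at the umbonal stage (score 0.21).

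Enzymes made up another group. CUST_55241 was closest to a dopamine beta hydroxylase-like protein of an annelid, and dopamine beta hydroxylase makes noradrenaline from dopamine in vertebrates. It read 1618, 1571 and 1410.0 in juveniles and 168, 193 and 127 in D-shaped larvae (log2 difference 3.26, standard error 0.54, adjusted p = 0.00016). The umbonal pools between had 31.2, 41.5 and 27.6. CUST_43759 was closest to Tsta3, the GDP-fucose synthase that makes the donor sugar for fucose-bearing glycans, and is listed under fructose and mannose metabolism. It had 4514, 3951 and 3568 in juveniles and 502, 576 and 650.2 in D-shaped larvae (log2 difference 2.80, standard error 0.16, adjusted p = 7.9e-09). The umbonal pools read 115, 117 and 149. CUST_9255, closest to CG12512 of a beetle and listed under ubiquinone and other terpenoid-quinone biosynthesis, had 5396, 5165 and 4804 in juveniles and 426, 619 and 428 in D-shaped larvae (log2 difference 3.40, standard error 0.34, adjusted p = 1.4e-06). CUST_16716, closest to a serine protease of a wasp, was detected on none of the 9 low arrays. It read 499, 528 and 528 in juveniles and 72.1, 158 and 191 in D-shaped larvae (log2 difference 2.00, standard error 0.37, adjusted p = 0.00041), and both stages lay above the bound for the umbonal level, the juveniles by at least 30.003-fold and the D-shaped larvae by at least 7.50-fold.

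Structural and membrane proteins formed a further group. CUST_44446 was closest to keratin 5, an intermediate filament protein of the mammalian epidermis, CUST_26933 to caveolin-3, a coat protein of membrane pits in vertebrate muscle, and CUST_56057 to apical endosomal glycoprotein, a membrane protein of endosomes in mammals. CUST_44446 had 1026, 1446 and 937 in D-shaped larvae, 235, 277 and 236 in umbonal larvae and 50562, 54748 and 52422 in juveniles. CUST_26933 had 223, 157 and 210.4 in D-shaped larvae, 33.2, 36.6 and 36.2 in umbonal larvae and 37134, 35716 and 40785 in juveniles. CUST_56057 had 892, 1004 and 620.3 in D-shaped larvae, 97.0, 123 and 105 in umbonal larvae and 7654, 9063 and 8485 in juveniles. All 3 were higher in juveniles than in D-shaped larvae, with adjusted p of 0.00036, 4.1e-06 and 4.3e-08. CUST_51905, closest to MIP05945p of *Drosophila*, had the same shape, with 83.4, 152 and 76.8 in D-shaped larvae, 15.9, 19.7 and 23.7 in umbonal larvae and 16792, 17169 and 14984 in juveniles (adjusted p = 1.3e-06 for juveniles against D-shaped larvae).

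Egg array 3 read high in several of these. CUST_44446 had 20.6, 53.1 and 1294 on egg arrays 1, 2 and 3, CUST_26933 had 20.6, 7.61 and 235, and CUST_51905 had 20.6, 7.20 and 128. Egg array 3 thus lay above all D-shaped pools of CUST_26933. In CUST_44446 and CUST_51905 it lay above all D-shaped pools but the highest. Their egg means, which are lower, also take in the common value of 20.6 on egg array 1. In 11 members egg array 3 was at least 2-fold above both other egg arrays, and 9 of these 11 were called higher in juveniles than in D-shaped larvae and none lower. Of all probes detected on the 3 juvenile arrays 2.02% had such an excess on egg array 3, and 42.9% of those were higher in juveniles than in D-shaped larvae. On egg array 1 the same excess was seen in 14 members, 1 of them higher and 2 lower in juveniles, beside 3.96% of all such probes, and on egg array 2 in 0 members, beside 0.96%. All of these 14 but CUST_3545 and CUST_35639 read the common value of 20.6 on egg array 1. As that value is not a measured level, the counts for egg arrays 1 and 3 are not alike. Beyond the members, 244 probes had a juvenile mean log2 signal over 13 and a log2 signal below 6 on egg array 2. Of these, 141 were at least 2-fold higher on egg array 3 than on both others. The limit on egg array 2 favours such an excess, and probes dim in juveniles were not counted, so nothing is read from this count. What part the excess on egg array 3 has in the egg values was not tested. Without egg array 3 the rule found 97 of the 100 members again.

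The 3 members with a term only were CUST_41668, CUST_34907 and CUST_41816, listed under thyroid cancer, primary immunodeficiency and complement and coagulation cascades, names of human pathways that say little of an oyster transcript. CUST_41816 was detected on all 15 arrays. It read 536, 761 and 844 in eggs, 1302, 821 and 927 in trochophores, 7315, 9368 and 9819.6 in D-shaped larvae, 2092, 2274 and 2243 in umbonal larvae, and 24089, 24052 and 24087 in juveniles, where it was higher than in D-shaped larvae by 1.46 in log2 signal (standard error 0.20, adjusted p = 3.3e-05). Here the umbonal stage was a dip above the earlier levels rather than an absence. CUST_41668 had 466, 407 and 434 in juveniles and 931, 1010.4 and 701 in D-shaped larvae, a log2 difference of -1.001 (adjusted p = 0.006) at the limit of a call, and it was no longer called under 10 of the alternatives tried, -0.53 with spike-in scaling among them. CUST_34907 had 229, 155 and 131 in juveniles and 73.5, 100.3 and 68.9 in D-shaped larvae (log2 difference 1.07, adjusted p = 0.051). It was not called, but was called higher under 6 of the alternatives tried, among them spike-in scaling (1.54) and the deposited log2 values (1.28).

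**Figure D4:**
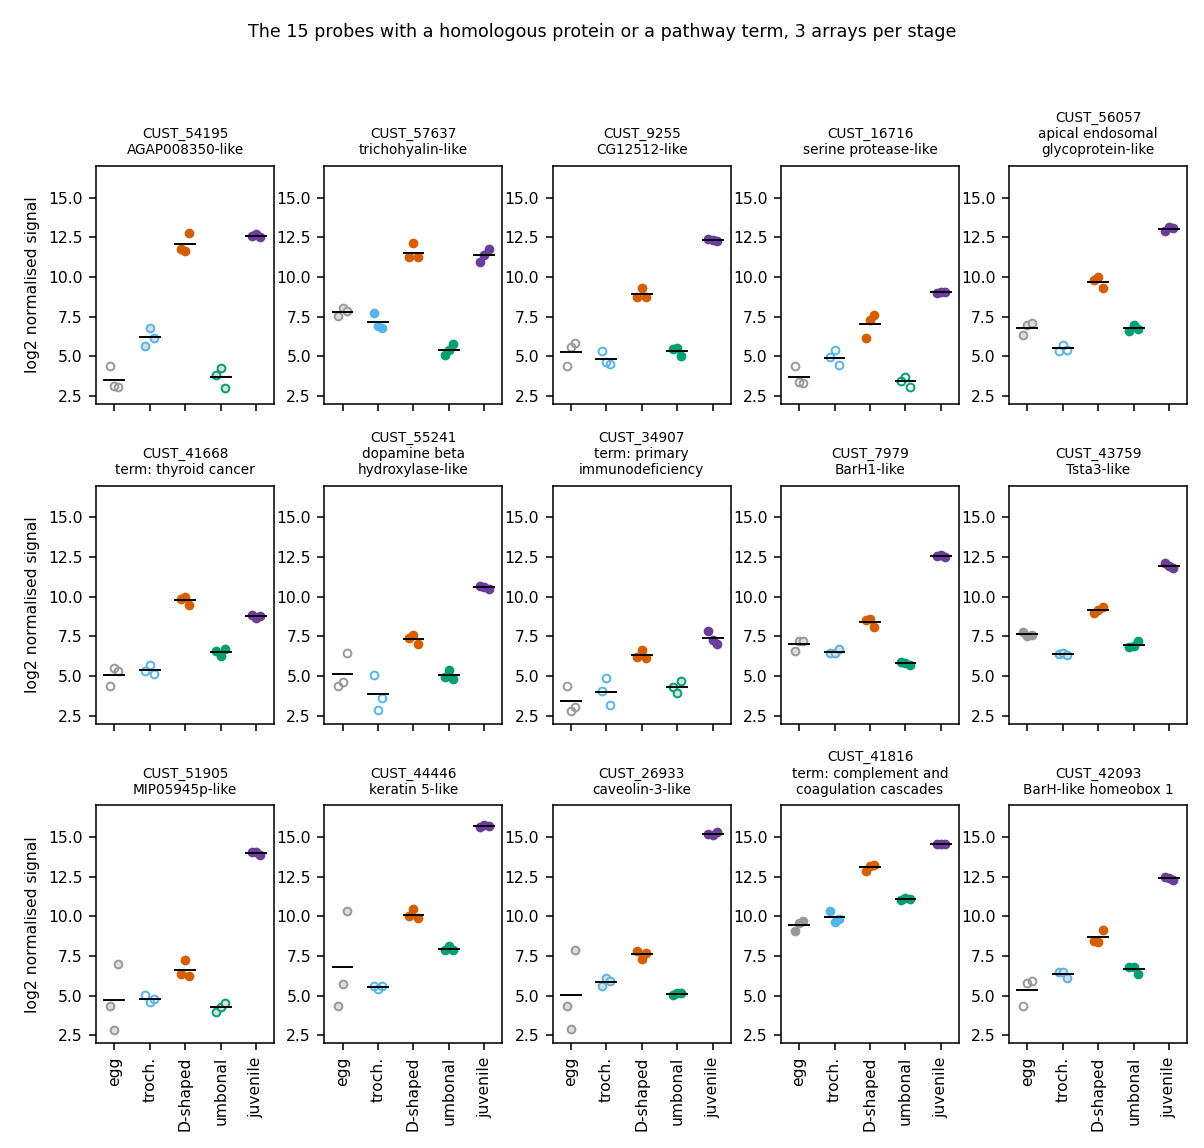
Log2 normalised signal of the 15 members with a homologous protein or a pathway term, 1 panel per probe, with 3 arrays per stage as points and the stage mean as a black bar. Filled, grey-filled and open points mark stages detected on 3, on 1 or 2, and on no arrays. The high last egg point of CUST_44446, CUST_26933 and CUST_51905 is egg array 3, and in 11 panels the juvenile level was called above the D-shaped one.

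The low stages were compared where the rule leaves their difference free. Between trochophores and eggs 23 members could be tested, those detected on all 3 arrays of either stage. Of these 11 were higher and 3 lower in trochophores, beside 26.0% higher and 27.1% lower among all 38147 probes tested. With spike-in scaling, which moved the median of all tested probes to 0.43, 15 members were higher and 0 lower, 0 also at an unadjusted p, beside 38.2% and 19.2% of all probes. As 20 of the members entered through detection in trochophores, the balance of these counts is not a result. CUST_36282 had 491, 309 and 332 in trochophores and 20.6, 22.5 and 19.3 in eggs, a log2 difference of 4.15 (standard error 0.20, adjusted p = 1.2e-09). The probe was detected on no egg array, so this value is not a measured fold. CUST_45960 had a measured level in both stages. It read 1539.8, 1114 and 1207 in trochophores and 184, 171 and 244 in eggs (log2 difference 2.69, adjusted p = 7.8e-08). Lower in trochophores were CUST_47348, CUST_43759 and CUST_18912, by 1.79, 1.24 and 1.19 on the log2 scale (adjusted p = 8.8e-06, 9.7e-06 and 0.00014). The Tsta3-like probe CUST_43759 had 82.6, 89.0 and 79.0 in trochophores and 223, 181 and 192 in eggs. With spike-in scaling none of these 3 was called. For CUST_43759 the log2 difference was then -0.16, and its call was also lost with the shift to the 75th percentile (-0.65), the authors' processed values (-0.65) and normexp background correction (-0.69).

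Between umbonal larvae and trochophores 66 members were tested. Of these 22 were higher and 7 lower in umbonal larvae, beside 24.0% higher and 25.7% lower among all 47856 probes tested. As 64 of the members entered through detection in umbonal larvae, the balance of these counts is not a result. With detection required on all 6 arrays, 3 of the 18 members tested were higher and 4 lower. The stages lie on different slides, and with the slide as a block, which rests on the D-shaped pools alone, 16 were higher and 4 lower, beside 20.7% and 23.4% of all probes. With spike-in scaling, which moved the median of all tested probes to 0.89, 51 were higher and 2 lower, beside 46.1% and 8.11% of all probes. CUST_10941 had 508, 559 and 589 in umbonal larvae and 33.2, 6.76 and 15.8 in trochophores (log2 difference 5.17, standard error 0.46, adjusted p = 3.5e-07). No trochophore array detected it, so this too is not a measured fold. Its umbonal level was a clear signal, and it counts as low only beside the 4115, 3197 and 3617 of D-shaped larvae and the 4074, 4091 and 4034 of juveniles. The opposite order was seen in CUST_14404, with 22.2, 24.1 and 20.2 in umbonal larvae and 202, 172 and 205 in trochophores, where the log2 signal fell by 3.12 (standard error 0.32, adjusted p = 1.5e-06). CUST_57637 fell by 1.75 in log2 signal (standard error 0.32, adjusted p = 0.00026), a call that was lost with spike-in scaling (-0.41) and with the slide as a block (-1.34). CUST_41816 was higher in umbonal larvae than in trochophores by 1.14 (adjusted p = 0.00022), but was no longer called with normexp background correction (0.94) or the slide as a block (0.90). CUST_56057, detected on no trochophore array, had a fitted difference of 1.27 (adjusted p = 0.00025), which is not a measured one and was not called with normexp (0.54).

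Lists of genes known from shell formation were set beside the pattern. Of all 40210 eligible probes 0.249% were members and 7.55% had a score above 0, so that in lists this short a count of 0 members is near the background and is not a result. None of the 30 biomineralization-related probes that the study tabulates was a member. Of these, 14 were detected on all 6 D-shaped and juvenile arrays, and 3 of the 14 had a score above 0. Of the 29 tested, 25 were higher in juveniles than in D-shaped larvae and none was lower. No tyrosinase (17 probes, 1 of them eligible), collagen (22, with 5 eligible), shell matrix (39, with 13), protease inhibitor (12, with 5) or glutathione S-transferase (11, with 9) probe was a member either, and for tyrosinases detection alone decided this for all but 1. Of the 4 chitin synthase probes named by the study, 3 had a score above 0. Of these 4, none was higher and 1 was lower in juveniles than in D-shaped larvae. Peroxidases are haem enzymes that oxidize and cross-link phenolic and tyrosine groups. The study's sheets and tables name 9 probes for them, of which 4 were detected on all 6 arrays and had a score above 0. All but 1 of these 4 are probes left out by name.

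The peroxidase probe CUST_47036, closest to the ovoperoxidase of a sea urchin, an enzyme that hardens the fertilization envelope there, had a score of 5.46. It read 20.6, 43.0 and 67.5 in eggs, 126, 125 and 78.1 in trochophores, 4635, 3779 and 6399.9 in D-shaped larvae, 18.9, 15.4 and 23.9 in umbonal larvae, and 5378, 5934 and 4782 in juveniles. CUST_56279, closest to a mosquito peroxidase, had a score of 4.67, with 1697, 1602 and 1445 in D-shaped larvae, 15.6, 7.70 and 12.2 in umbonal larvae and 828, 988 and 616 in juveniles. CUST_54967, a melanogenic peroxidase by its homolog, had a score of 2.09. It read 96.0, 164 and 97.0 in D-shaped larvae, 24.8, 27.0 and 23.8 in umbonal larvae and 231, 333 and 255 in juveniles, where it was higher than in D-shaped larvae by 1.23 in log2 signal (standard error 0.26, adjusted p = 0.001). All 3 are listed under methane metabolism, as is the member CUST_54195. With the left-out probes kept in the ranking these 3 would take the place of 3 members. The temptin probe CUST_12898 does not have the pattern. It read 1252, 995 and 1513 in D-shaped larvae and 3033, 2349.9 and 2416 in eggs, and its score was -1.23.

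Just inside the limit of the rule were CUST_4576, CUST_54688 and CUST_21365, with scores of 1.80, 1.78 and 1.78. Just outside were CUST_51373, CUST_21515 and CUST_1702, with 1.78, 1.78 and 1.78. To 2 decimals the scores on either side of the limit are the same for all but CUST_4576. CUST_4576 had 118, 109.8 and 93.7 in juveniles, against 46.6, 39.1 and 24.7 in umbonal larvae, and CUST_1702 had 77.4, 83.2 and 67.9 in juveniles, against 25.03, 42.2 and 21.0 in umbonal larvae. CUST_21515, outside, was far brighter in juveniles, with 2591, 2879 and 3255, than in umbonal larvae, with 131, 149 and 163. In CUST_54688 the D-shaped pools read 121, 115 and 78.2 and egg arrays 2 and 3 read 48.6 and 59.98 without being detected, so that its difference from the eggs is not measured.

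The D-shaped pools lay on both slides, which allows the high D-shaped level to be read on each. Both D-shaped pools of slide 1 were above all 9 low arrays in 95 members, and the pool of slide 2 was in 96. Since the rule used the mean of these pools against the low stages, such counts were favoured by the selection and nothing is read from them. The slide 2 pool minus the mean of the slide 1 pools had a median log2 difference of -0.09 over the members and -0.11 over all probes detected on the 3 D-shaped arrays. It exceeded 2-fold in 5.0% of the members and 7.04% of those probes. When the D-shaped mean was taken from slide 1 alone the rule found 96 of the 100 members again, and from slide 2 alone 90. Values from quantile normalization gave 85 and spike-in scaled values 80.

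The pools were whole cultures fed on algae, and other organisms may have been taken along. Of the 30 probes on the sheets whose closest protein is from a protist, 29 are not members. Their summed signal was 3475 to 5537 on the egg arrays, 11032 to 12065 on the trochophore arrays, 2288 to 2551 on the D-shaped arrays, 1175 to 1321 on the umbonal arrays and 107299 to 128126 on the juvenile arrays. CUST_29919, closest to a polyubiquitin, made up most of the trochophore sum, with 8443, 7800.2 and 8102. Without it the sum was 3459 to 5517 on the egg arrays, 2930.1 to 4265 on the trochophore arrays, 1673 to 2029 on the D-shaped arrays, 1168 to 1314 on the umbonal arrays and 103789 to 124319 on the juvenile arrays. With or without it the D-shaped sum thus lay below that of the earlier stages and above that of the umbonal larvae, and the juvenile sum was far above all others. All 30 stand on sheets chosen for a rise to the juvenile stage, and the part of other organisms in the members' signal was not tested.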

How the data were processed

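The deposited scanner files hold intensity values from Agilent Feature Extraction, already corrected by it for background and spatial trend. The log2 values table was made by the authors in GeneSpring GX, and in each of its columns 99.5% to 99.9% of probes lay within 0.05 of the log2 scanner signal minus 1 constant per array. Flags of well-above-background, saturated and outlier spots were used as deposited. No probe sequences were used here. Control and outlier spots were dropped, spots of a probe averaged, and log2 signals floored at a signal of 1 and quantile-normalized over 58883 probes. The linear signals in the text are these values. All 15 arrays entered 1 fit in limma 3.58.1 (R 4.3.3), with a mean per stage. A probe was tested if detected on all 3 arrays of either stage, and adjusted p values are limma's. A fold against a stage that detected a probe on no array is a bound, taken against that stage's mean of, array by array, the lowest detected value or the probe's own if that was higher. The fit was tested on simulated data. Arrays give no counts, so the number of arrays limits precision. Named probes are the 10 highest scores, all annotated members, the 5 largest rises and falls between juveniles and D-shaped larvae, 3 probes on either side of the limit and the left-out probes. Others are given as examples and were chosen after their values were seen. Members and lists were chosen with earlier results of these data known. Alternatives were other scalings, filters, thresholds, blocks and arrays left out. Python 3.11.15 with pandas 2.3.3 made the tables.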

Additional observations from a re-analysis of the deposited data

How the results depend on the processing

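Between juveniles and D-shaped larvae, the 32 members higher and 22 lower moved by less than 1.5 times under every alternative tried, to 32 to 40 higher and 15 to 31 lower. Leaving out each array in turn gave 32 to 33 higher and 20 to 22 lower. Between trochophores and eggs the counts (11 higher, 3 lower) rested on the filter. Without it they were 26 and 10, and with detection required on all 6 arrays 1 and 1. With spike-in scaling 0 were lower by limma, and 0 also at an unadjusted p, with 2 lower when no fold limit was set, and with no fold limit on quantile values 5 were lower. Leaving out each array gave 10 to 13 higher and 3 to 6 lower, with 6 lower without egg array 1, whose common value stands in for dim probes. Between umbonal larvae and trochophores (22 higher, 7 lower), spike-in scaling gave 51 and 2, normexp background correction 14 higher, no filter 14 lower, detection on all 6 arrays 3 and 4, and the slide as a block 4 lower. Leaving out each array gave 21 to 27 higher and 6 to 9 lower. Fewer members were tested under the stricter filter, and otherwise the cause was not tested. The rule found 94 to 100 members again when 1 array was left out, and between 80 and 97 under the other alternatives, the ranking with the left-out probes kept in (97) having been added after the data were seen.

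The replicate numbers only name the arrays, since deviations of arrays with the same number correlated between -0.20 and 0.09 in the 3 comparisons. With a replicate block the counts were unchanged, 32 and 22, 11 and 3, and 22 and 7.

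No called value of a named member changed sign. Signal over background limits the dim members, of which 10 were detected on none of the 9 low arrays, and array-wide scaling decides small differences.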

Other observations

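Of the 300 probes designed from public sequences rather than from the unigenes, which the deposited values table does not hold, 218 were detected on all 6 D-shaped and juvenile arrays. On the quantile-normalized log2 scale 26 of these had a score above 0, and 3 scored at or above 0.71, the lowest score of the 100 members on that scale. Their highest score was 1.88.

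The spread between pools of the members was small in juveniles, with a median SD of 0.14 on the log2 scale, the same as the 0.14 of all probes detected on the 3 juvenile arrays. In D-shaped larvae it was 0.27, beside 0.25 for all probes detected there. In eggs, where most members were not detected, it was 0.63. Over the 100 members, the D-shaped and juvenile mean log2 signals correlated with Pearson's r = 0.62, and over all probes detected on the 6 arrays with r = 0.83. Both describe probes measured on the same arrays and are given with no test.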
